A study of Mus musculus musculus x Mus musculus castaneus with 12 samples.

Results

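The Dlk1-Meg3 domain is an imprinted gene cluster on mouse chromosome 12, described here through 6 of the 24346 genes in the deposited files. Its members were taken by gene symbol, after earlier results on these samples had shown *Meg3*, *Rian* and *Mirg* to fall in *Kdm6a* knockout (KO) clones of one cross, so that comparison is given below as a description without a test. *Meg3*, *Rian* and *Mirg* are non-coding RNAs known to be made from the maternal allele, and *Dlk1*, *Rtl1* and *Dio3* are protein-coding genes known to favour the paternal allele. On GRCm38 the members lie between chr12:109452823, the start of *Dlk1*, and chr12:110281097, the end of *Dio3*. All 6 were found in the files.

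In imprinted domains, DNA methylation laid down in one parent's germ line decides which parental copy is transcribed. In this cluster the copy inherited from the father is methylated at an intergenic control region and expresses the protein-coding genes, while the unmethylated maternal copy gives a long run of non-coding RNAs that host many small nucleolar RNAs and microRNAs. In mouse pluripotent stem cells the maternal RNAs of the cluster are known to be lost in some lines, and their presence is widely used as a sign of developmental potential.

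The samples were embryonic stem (ES) cells of F1 hybrids of *Mus castaneus* (cast) with the mouse strain C57BL/6 J (BL6), and SNPs separate the parental alleles. BL6 was the maternal strain in the BC cross and cast in the reciprocal CB cross. KDM6A is an X-linked histone H3 lysine 27 demethylase, and its gene was edited by CRISPR/Cas9 in male cells. Male BC cells comprised wild type (wt, n = 2) and the hemizygous KO clones ΔE1, ΔE3 and ΔP4 (n = 3), and male CB cells comprised wt (n = 2) and KO (n = 3), the clones being ΔE2.5, ΔE2.7 and ΔP2.1. Female BC wt cells (n = 2) were the remaining group. ΔE stands for an exonic and ΔP for a promoter deletion. The methods give ΔE1 and ΔE3 a common origin, so the 3 BC KO clones hold 2 independent editing events. The paper also reports an off-target deletion of *Map3k15*, *Pdha1* and part of *Sh3kbp1* in ΔE1 and ΔE3, and in no other KO clone. The CB wt line carries an actin-GFP transgene. No label says that the wt samples are separate cultures, so p-values below measure only the spread between these samples, which may be technical. Cells were grown in serum and LIF on inactivated mouse fibroblasts, which were reduced by plating on gelatin before RNA was taken.

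The deletions were made with pairs of guide RNAs, which are shown here because they define the KO clones. Each is written 5′ to 3′ with the PAM in capitals.
ΔE left: gaaacctcacgaacccgaaaAGG
ΔE right: tagcattatctgcataccagAGG
ΔP left: ggacactgcatgtttgatggAGG
ΔP right: agctacatactccaaaggagAGG
On GRCm38 the ΔE left guide lies in exon 2 of *Kdm6a*, at chrX:18163390-18163409, where its sequence was found on the minus strand of the annotated transcript. The ΔE right guide covers the start of exon 4 at chrX:18208733-18208752. The ΔP left guide lies 2028 bp upstream of exon 1 at chrX:18160528-18160547, and the ΔP right guide lies in intron 2 at chrX:18164295-18164314.

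RNA-seq libraries held 49975599 to 89070402 fragments, of which 17.8% to 18.2% carried a SNP that assigned them to an allele. *Kdm6a* was at 49.8 to 51.7 transcripts per 1000000 transcripts (TPM) in male wt samples, at 0.0364 to 0.0441 TPM in the ΔP clones and at 2.07 to 13.5 TPM in the ΔE clones, which keep the later exons. All 10 pluripotency markers examined exceeded 1 TPM in every sample. Of 15 fibroblast markers, the summed level was 42.4 to 45.3 TPM in male BC wt, 18.2 to 33.4 TPM in the BC KO clones, 84.9 to 85.5 TPM in female BC wt and 106 to 112 TPM in male CB wt. It was 37.8, 57.9 and 158 TPM in ΔE2.5, ΔE2.7 and ΔP2.1. Embryonic fibroblasts are known to express genes of this domain, and the part of fibroblast RNA in the results below was not tested.

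*Meg3*, *Rian* and *Mirg* were nearly lost in all 3 KO clones of the BC cross. Levels are given as normalised counts per 1000000 fragments (CPM), scaled over all 12 samples. *Meg3*, at chr12:109541001-109571726, is the lncRNA that opens the maternal transcription unit, and was at 29.05 and 24.3 CPM in male BC wt against 0.332, 0.873 and 0.376 CPM in ΔE1, ΔE3 and ΔP4. *Rian*, at chr12:109603940-109661716, hosts a tandem array of small nucleolar RNAs and went from 21.8 and 21.7 CPM in wt to 0.332, 0.449 and 0.282 CPM in the same clones. *Mirg*, at chr12:109729764-109749460, hosts microRNAs and went from 2.29 and 2.204 CPM to 0.0474, 0.0499 and 0.0235 CPM. The mean of the KO clones was thus 1.97% of wt for *Meg3*, 1.63% for *Rian* and 1.79% for *Mirg*. *Meg3* in ΔE3 was the highest of these values, at 3.27% of the wt mean, while ΔE1 and ΔP4 were at 1.24% and 1.41%. The KO values rest on few fragments, 28, 70 and 32 for *Meg3*, 28, 36 and 24 for *Rian* and 4, 4 and 2 for *Mirg*. The loss was seen with both kinds of deletion, ΔP4 being the only promoter clone of this cross. In bulk RNA, fewer cells that express a gene and less RNA per cell cannot be told apart.

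The protein-coding members were lower in the same clones, by less. *Dlk1*, which encodes a transmembrane protein related to Notch ligands, was at 8.83 and 7.81 CPM in male BC wt and at 5.47, 3.51 and 5.33 CPM in ΔE1, ΔE3 and ΔP4, so that the KO mean was 57.3% of wt. *Rtl1*, a retrotransposon-derived gene known for its role in the placenta, was at 0.413 and 0.554 CPM in wt and at 0.130, 0.0499 and 0.0941 CPM in the clones. *Rtl1* was below 1 TPM in all 5 male BC samples, and its KO values rest on 11, 4 and 8 fragments. The libraries do not keep strand, so *Rtl1* fragments cannot be told apart from those of maternal RNA on the opposite strand. *Dio3*, the deiodinase that inactivates thyroid hormones, was at 1.30 and 1.38 CPM in wt and at 1.09, 1.10 and 0.988 CPM in the clones, with a KO mean at 78.9% of wt. In each of the 6 genes, every KO clone was below both wt samples. Of 13808 genes above 1 TPM in a male BC sample, 16.6% had every KO clone below both wt, and nothing is read from the count of members, since this comparison chose them. A mean at 10% of wt or less was reached by 11 of these genes (0.0797%), 3 of them *Meg3*, *Rian* and *Mirg*. The other 8, named after their values were seen, were 4 microRNA rows at under 0.1 CPM in wt and 4 X-linked genes of the Xlr cluster, part of which is known to be imprinted with maternal expression. *Xlr3a* went from a mean of 6.57 CPM in wt to 0.247 CPM in the BC KO clones, *Xlr3b* from 1.71 to 0.160, *Xlr5a* from 0.992 to 0 and *Xlr5c* from 0.221 to 0.0118 CPM. These are near-identical copies, among which the split of reads is uncertain. With ΔE1 and ΔE3 averaged, or with another scaling, all 6 genes remained below wt.

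**Figure D1:**
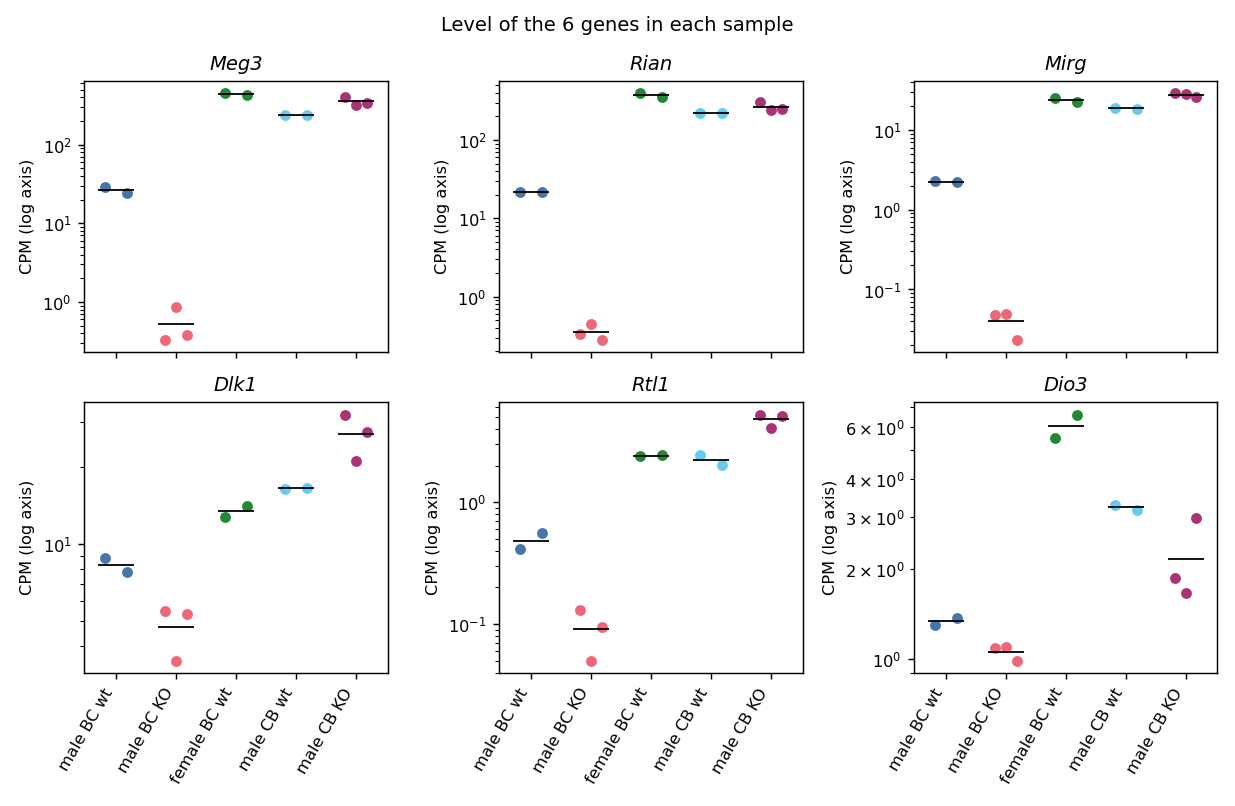
CPM (log axis) of the 6 genes in each of the 12 samples, grouped by cross, sex and genotype, with the group mean as a line. *Meg3*, *Rian* and *Mirg* lie lowest in the male BC KO clones, at 1.63% to 1.97% of the male BC wt mean, and male BC wt lies below female BC wt and both CB groups for every gene.

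The loss did not extend to the neighbouring genes. Of 28 annotated genes within 1 Mb on either side of the domain, 21 exceeded 1 TPM in a male BC sample. None of these had every BC KO clone below both wt samples, 5 had every clone above, and 16 overlapped. Of all 13808 genes, 16.6% had every clone below and 15.9% every clone above. Their log2 ratios of KO to wt ran from -0.29 for *Cinp* to 0.90 for *Mok*, with a median of 0.08, against a median of -0.01 over all 13808 genes. The nearest expressed neighbour upstream was *Begain*, at a log2 ratio of 0.53, and the nearest downstream was *Ppp2r5c*, at 0.30. Both parental copies of the flanking region were still transcribed in the clones, as the median maternal share of 19 flanking genes was 50.3% to 54.9% in the BC KO clones and 51.8% to 53.0% in wt. Single genes moved more than this median. *Begain*, which is not among the 19, was 57.1% maternal in wt and 71.6% in KO, pooled over each group. Over 20 flanking genes with enough SNP fragments in BC, the KO minus wt difference ran from -2.12 to 14.4 points, the largest being that of *Begain*. In the plot of the region, the drop is therefore seen between *Dlk1* and *Mirg*, and *Dio3*, at -0.34, lies just under the range of the flanking genes.

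**Figure D2:**
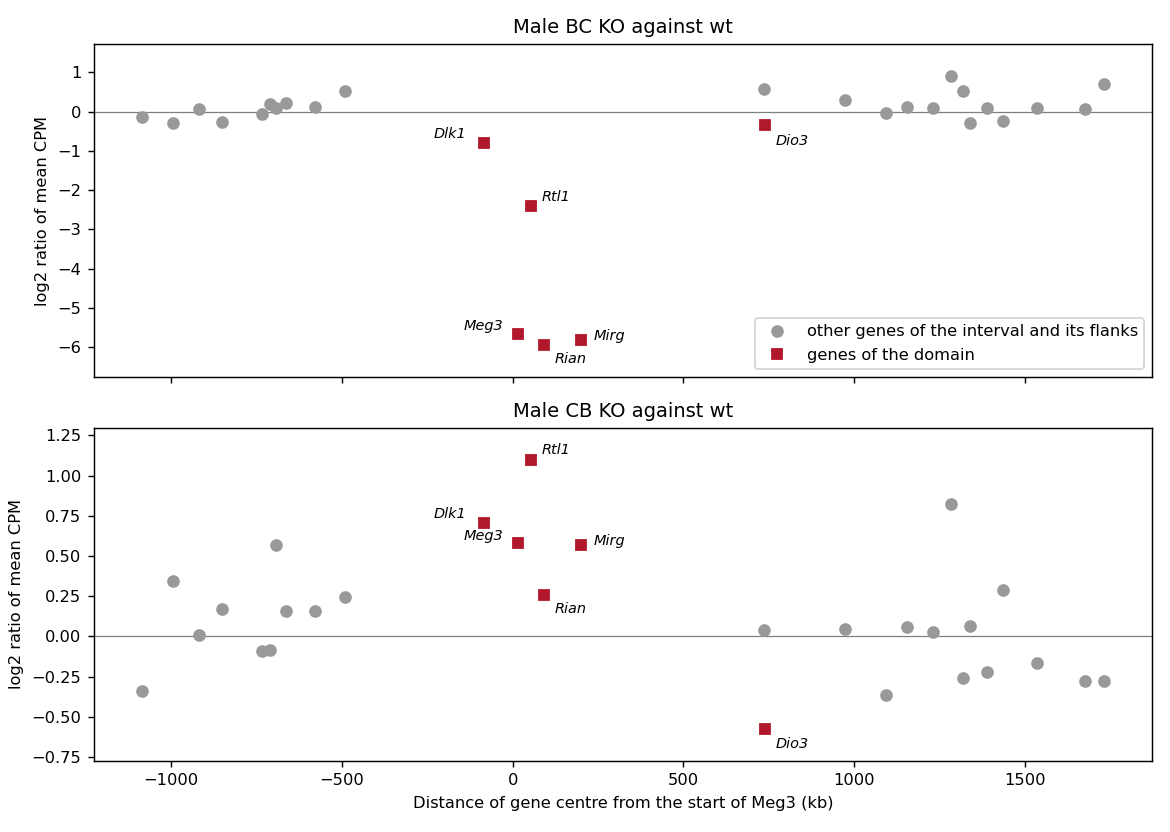
Log2 ratio of the mean CPM in KO to that in wt against the distance of each gene's centre from the start of *Meg3* in kb, for the BC cross (top) and the CB cross (bottom), which have different vertical scales. Squares are the 6 genes and circles are other expressed genes of the interval and its flanks; *Meg3*, *Rian* and *Mirg* lie between -5.94 and -5.66 in BC, where the circles lie between -0.30 and 0.90.

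SNP fragments showed which allele carried these RNAs. In male BC wt, *Rian* had 777 maternal and 19 paternal fragments in sample 1 and 759 and 27 in sample 2, a maternal share of 97.6% (95% Wilson interval 96.3 to 98.5) and 96.6% (95.05 to 97.6). Intervals cover counting error only, as the reads carry no molecular identifiers. In the KO clones the maternal fragments of *Rian* numbered 2, 2 and 1, and the paternal fragments 11, 14 and 10. Divided by the fragments of the library, as unscaled CPM, maternal *Rian* was thus at 0.215% of its wt level, and paternal *Rian* at 50.6%. The little *Rian* that remained was mostly paternal, with a maternal share of 12.5% (5.46 to 26.1) over the 3 clones together, each of which was under the minimum of 20 SNP fragments set for a share of its own. *Meg3* had 305 and 306 maternal and 4 and 9 paternal fragments in wt, and 6 maternal and 8 paternal fragments over the 3 clones. *Mirg* had 62 and 77 maternal and 4 and 1 paternal fragments in wt, and 1 of each over the 3 clones. The paternal counts of *Rian* in male BC wt, 0.279 unscaled CPM on average, were near those in male CB wt, 0.253, where the paternal strain is the other one. How much of these low paternal counts is wrongly assigned reads was not tested; fragments of the single, maternal X chromosome of the males were 98.8% to 99.3% maternal in BC and 88.5% to 90.1% in CB.

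**Figure D3:**
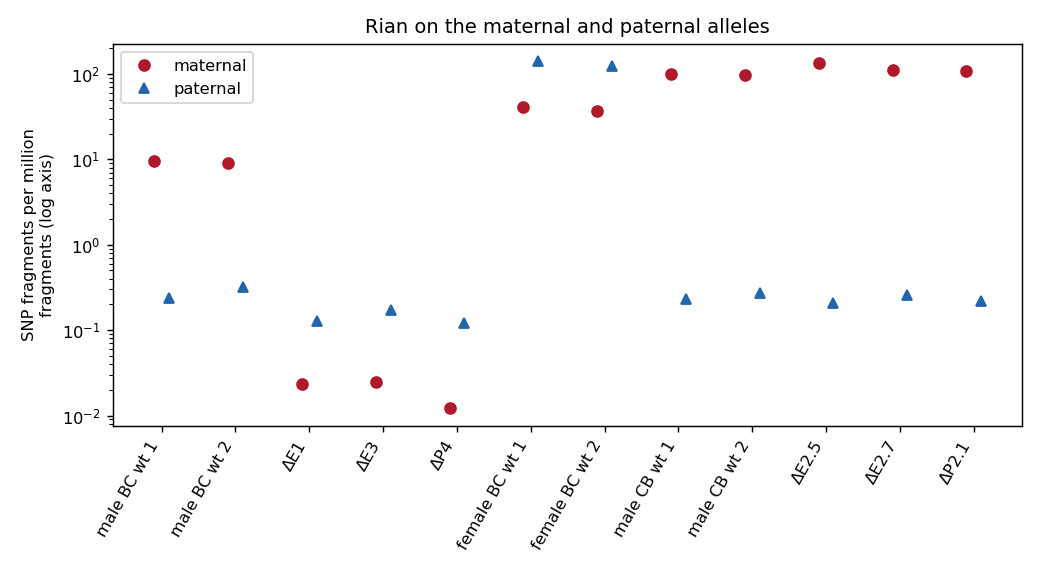
Maternal (circles) and paternal (triangles) SNP fragments of *Rian* as unscaled CPM (log axis) in each sample. In the 3 male BC KO clones the maternal points fall from 9.09 and 9.61 in wt to between 0.0121 and 0.0249, below the paternal points of the same clones, while in female BC wt the paternal points exceed the maternal ones.

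In the CB cross the KO clones kept the domain, at levels above wt for 5 of its 6 genes. *Meg3* was at 236 and 240 CPM in male CB wt and at 408, 316 and 342 CPM in ΔE2.5, ΔE2.7 and ΔP2.1. The same samples had 224 and 221 CPM of *Rian* in wt, and 309, 243 and 246 CPM in the clones. *Mirg* was at 18.7 and 18.4 CPM in wt and at 28.7, 28.1 and 25.5 CPM in the clones. ΔE2.5 was the highest clone for each of the 3 non-coding RNAs, and no clone overlapped the wt samples. *Dlk1* was at 16.4 and 16.7 CPM in wt and at 32.2, 21.2 and 27.5 CPM in the clones, and *Rtl1* at 2.45 and 2.03 CPM and at 5.24, 4.06 and 5.09 CPM. *Dio3* went the other way, from 3.28 and 3.17 CPM in wt to 1.86, 1.66 and 2.97 CPM, with ΔP2.1 close to wt.

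None of these CB differences passed the test. Quasi-likelihood testing in edgeR, adjusted over 13801 genes by the Benjamini-Hochberg method, with calls at a false discovery rate (FDR) under 0.05 and at least 1.5-fold, called 0 of the 6 members and 0.0% of all genes. At an unadjusted p under 0.05, 2832 genes passed. Log2 fold changes of KO over wt were 0.59 ± 0.13 (standard error) for *Meg3*, 0.27 ± 0.13 for *Rian* and 0.58 ± 0.10 for *Mirg*, with adjusted p of 0.140, 0.302 and 0.130 from edgeR. They were 0.72 ± 0.19 for *Dlk1*, 1.11 ± 0.21 for *Rtl1* and -0.56 ± 0.29 for *Dio3*, with adjusted p of 0.169, 0.132 and 0.338 from edgeR. The median over the 6 was 0.59, against 0.01 over all genes tested. Every KO clone was above both wt samples for 5 members, as for 21.3% of all genes, and below both for *Dio3*, as for 25.1%.

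2 alternatives changed this count. DESeq2 called *Meg3*, *Rtl1* and *Dlk1* higher, among 501 genes (3.63%). Without ΔP2.1, the clone with the highest fibroblast marker sum, edgeR called *Mirg* and *Rtl1* higher and *Dio3* lower. In that setting 927 of 13720 genes were called, 361 higher and 566 lower. The members' fold changes kept their direction under every alternative run on the diploid counts, with *Rian* between 0.15 and 0.33. Of 22 flanking genes tested, 0 were called by either tool, where edgeR called 0.0% and DESeq2 3.63% of all genes. The flanking median was 0.05.

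In CB cells the 3 non-coding RNAs came almost wholly from the maternal, here cast, allele with and without *Kdm6a*. *Meg3* had 1611 maternal and 3 paternal fragments in CB wt 1 and 1555 and 2 in CB wt 2, against 2815 and 7, 2243 and 5, and 2224 and 6 in ΔE2.5, ΔE2.7 and ΔP2.1. Its maternal share was 99.8% ± 0.04 (SD, n = 2) in wt and 99.8% ± 0.02 (SD, n = 3) in KO. *Rian* had a maternal share of 99.7% ± 0.03 in wt and 99.8% ± 0.04 in KO, and *Mirg* 99.7% ± 0.39 and 99.7% ± 0.31. The higher values of the CB clones thus lay on the allele transcribed in wt, with a log2 fold change of 0.67 ± 0.13 for *Meg3*, 0.61 ± 0.12 for *Mirg* and 0.30 ± 0.14 for *Rian* on maternal counts. The edgeR test called 0 of 6 members on the maternal allele, as 0.0% of 12210 genes, with adjusted p from 0.239 to 0.677, and 1691 genes had an unadjusted p under 0.05. DESeq2 called *Meg3* and *Mirg* higher on this allele, among 115 genes (0.942%). On the paternal allele only *Dlk1* and *Dio3* were abundant enough to be tested, and 0 were called, as 0.0% of 11720 genes, with adjusted p of 0.519 and 0.797 from edgeR. DESeq2 also called 0 members there, with 1.07% of all genes called, and 1365 genes had an unadjusted p under 0.05 in edgeR.

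**Figure D4:**
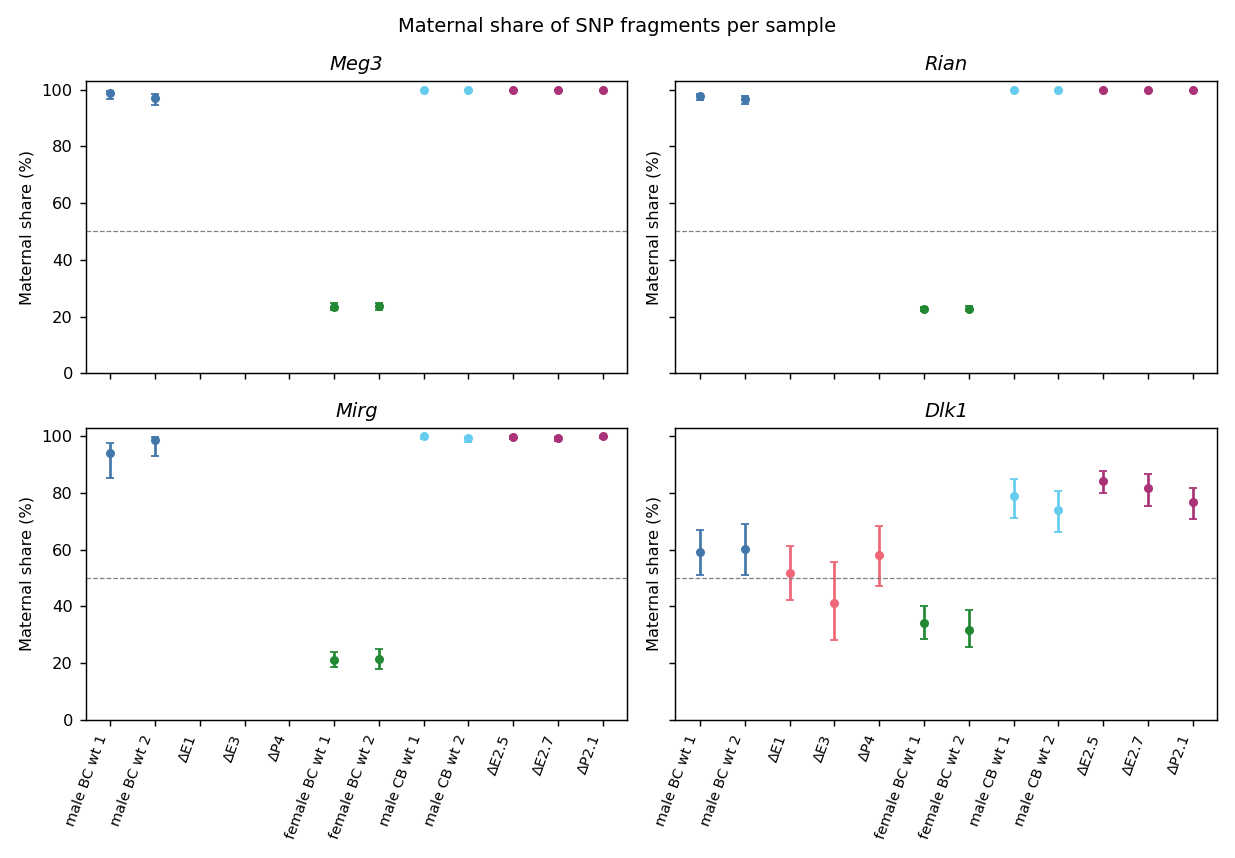
Maternal share of SNP fragments (%) of *Meg3*, *Rian*, *Mirg* and *Dlk1* in each sample with at least 20 SNP fragments, with 95% Wilson intervals; the dashed line marks 50%. The non-coding RNAs are above 93% maternal in male BC wt and all CB samples and between 21% and 24% in female BC wt, and have no point in the BC KO clones.

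Male BC wt cells, the starting point of the BC clones, already had low levels of the domain. *Meg3* in male BC wt was at 11.2% of its level in male CB wt and at 6.10% of that in female BC wt, where it reached 449 and 427 CPM. For *Rian* these shares were 9.76% and 5.80%, and for *Mirg* 12.1% and 9.48%. *Dlk1* differed least, with male BC wt at 50.2% of CB wt and 61.7% of female BC wt. The order of the groups was female BC wt, CB KO, CB wt, BC wt and BC KO for *Meg3* and *Rian*, with no overlap between neighbours, and for *Mirg* and *Rtl1* the CB KO clones came above female BC wt. *Rtl1* in female BC wt, at 2.37 and 2.44 CPM, overlapped male CB wt.

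All 6 members were called higher in male CB wt than in male BC wt by edgeR. *Rtl1* passed the 1 TPM filter only through CB wt 1, at 1.07 TPM, with male BC wt at 0.169 and 0.221 TPM. The male BC wt samples were also the wt side of the comparison that chose the members. The share called higher among 13828 genes was 19.8%. Log2 fold changes were 3.20 ± 0.08 for *Meg3*, 3.40 ± 0.05 for *Rian* and 3.08 ± 0.07 for *Mirg*, with adjusted p of 9.37e-07, 3.21e-07 and 7.90e-07 from edgeR. For the protein-coding members they were 1.03 ± 0.08 (*Dlk1*), 2.24 ± 0.21 (*Rtl1*) and 1.30 ± 0.12 (*Dio3*), with adjusted p of 4.02e-05, 1.17e-04 and 1.22e-04 from edgeR. The median over the members was 2.66, against -0.01 over all genes. Cross, cell line and sequencing depth go together here and cannot be told apart. Of 12 fibroblast markers tested, 10 were called higher in CB wt and 1 lower, where 19.8% and 14.7% of all genes were. *Col1a1*, with the largest change, was at 56.3 and 52.1 TPM against 9.23 and 7.45 TPM. *Thy1* was the lower one, at a log2 fold change of -0.62 ± 0.07. The part of fibroblast RNA in the differences of the members was not tested. Of 22 flanking genes tested, *Eml1* (1.27 ± 0.07) and *Traf3* (0.61 ± 0.06) were called higher and *Ankrd9* (-0.62 ± 0.10) lower, and the flanking median was 0.03.

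Female BC wt cells were also above male BC wt for all 6 members. The edgeR test called every member higher, where 24.5% of 14049 genes were. Log2 fold changes were 4.04 ± 0.10 for *Meg3*, 4.11 ± 0.08 for *Rian* and 3.40 ± 0.11 for *Mirg*, with adjusted p of 3.05e-10, 1.80e-10 and 1.15e-09 from edgeR. They were 0.70 ± 0.10 for *Dlk1*, 2.31 ± 0.19 for *Rtl1* and 2.16 ± 0.14 for *Dio3*, with adjusted p of 5.52e-05, 1.09e-06 and 1.51e-07 from edgeR. The median over the members was 2.85, against -0.01 over all genes. The summed level of the 15 fibroblast markers was 84.9 to 85.5 TPM in the female samples, against 42.4 to 45.3 TPM in male BC wt. Over the list, 3 fibroblast markers were called higher and 5 lower of 10 tested, and 6 of 10 pluripotency markers were called higher and 0 lower. Both comparisons use the same male BC wt samples, which were also the wt side of the comparison that chose the members, and *Rtl1* entered both only through the higher group, since it was under 1 TPM in male BC wt. Of the 22 flanking genes tested, 10 were called higher in the female cells and 1 lower, with a median log2 fold change of 0.60 and the largest, 1.65 ± 0.19, for *Amn*. Sex and cell line cannot be told apart, as the female cells are a single line.

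**Figure D5:**
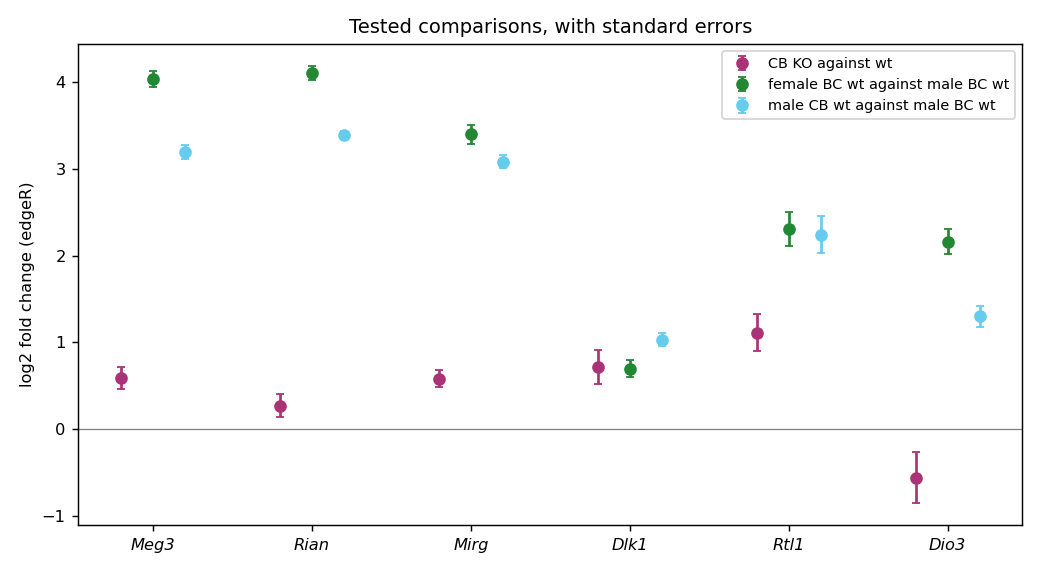
Log2 fold changes (edgeR, with standard errors as bars) of the 6 genes in the 3 tested comparisons. The differences of female BC wt and male CB wt from male BC wt are above 0.6 for every gene and above 3 for *Meg3*, *Rian* and *Mirg*, while those of CB KO from wt lie between -0.56 and 1.11 and did not pass the test.

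In female BC wt cells the non-coding RNAs came mainly from the paternal, cast allele. *Meg3* had 1218 maternal and 3975 paternal fragments in female 1 and 984 and 3191 in female 2, a maternal share of 23.5% (22.3 to 24.6) and 23.6% (22.3 to 24.9). The share was 22.6% and 22.8% for *Rian* and 21.2% and 21.4% for *Mirg*. Maternal *Meg3* was nonetheless 3.77-fold above male BC wt in unscaled CPM, and maternal *Rian* 4.16-fold, so both alleles were higher in the female cells. After correction for the excess of cast over BL6 fragments at autosomal genes in these samples, the female shares were 26.9% for *Meg3*, 26.0% for *Rian* and 24.5% for *Mirg*. Flanking genes had a median maternal share of 46.1% and 46.9% in the same samples. Other imprinted genes in the female cells varied widely, with a median maternal share of 51.8% and a range of 20% to 79.2% over 9 maternally expressed genes, and a median of 51.2% and a range of 18.4% to 77.6% over 12 paternally expressed genes with enough SNP fragments. *Snrpn* and *Mest*, both paternally expressed, were 61.6% and 49.4% maternal in female BC wt and 2.35% and 1.46% maternal in male BC wt.

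The paternal copy gave less of *Dlk1* than the maternal one in male CB wt cells, while in male BC wt the maternal excess was small. *Dlk1* had 84 maternal and 58 paternal fragments in male BC wt 1 and 67 and 44 in male BC wt 2, a maternal share of 59.8% ± 0.85 (SD, n = 2). The Wilson intervals of these samples, before the correction given below, reached down to 50.9% and 51.1%. In BC KO clones this share was 50.5% ± 8.56 (SD, n = 3), with ΔE3 at 41.3% (28.3 to 55.7). The group means of both alleles were lower, at 51.2% of wt for the maternal and 70.1% for the paternal. Paternal *Dlk1* overlapped wt, with ΔE1 at 0.572 unscaled CPM against 0.717 and 0.527 in wt. In male CB wt the maternal share of *Dlk1* was 76.5% ± 3.35 (SD, n = 2), in CB KO 81.0% ± 3.78 (SD, n = 3) and in female BC wt 33.0% ± 1.71 (SD, n = 2). Corrected for the autosomal ratio of BL6 to cast fragments, the maternal share was 54.5% in male BC wt, 46.0% in BC KO, 79.3% in male CB wt, 83.3% in CB KO and 37.1% in female BC wt. Counted by strain without this correction, cast therefore gave 40.3% of *Dlk1* fragments in male BC wt, 66.8% in female BC wt and 76.4% in male CB wt. *Dio3* reached 20 SNP fragments in each sample only in female BC wt, with 7 maternal and 24 paternal fragments in female 1 and 6 and 16 in female 2.

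*Rtl1* could not be assigned cleanly, because its transcript runs opposite to the maternal non-coding RNA. The library kit does not keep strand, so fragments of *Rtl1*, at chr12:109589193-109600330 on the minus strand, and of RNA from the plus strand cannot be told apart. The annotation places 6 microRNA genes on the plus strand inside *Rtl1*, and the reverse complement of each was found in the *Rtl1* transcript. Hairpins of *Mir127*, *Mir434* and *Mir136*, taken from the GENCODE transcripts and written 5′ to 3′, are shown as examples of the sequence that the antisense RNA and *Rtl1* share.
Mir127: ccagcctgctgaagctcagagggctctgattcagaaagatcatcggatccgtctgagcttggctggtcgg
Mir434: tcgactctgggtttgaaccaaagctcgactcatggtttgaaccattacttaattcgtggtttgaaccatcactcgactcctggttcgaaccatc
Mir136: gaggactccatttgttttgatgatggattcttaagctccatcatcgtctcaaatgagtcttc
They lie at chr12:109592846-109592915, chr12:109594506-109594599 and chr12:109595327-109595388. All 13 SNP fragments counted to *Rtl1* in male CB wt and all 67 in the CB KO clones were maternal, while 9 of 10 in female BC wt were paternal. In each case these are mostly cast fragments, and the male BC samples had 6 in all.

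The other 66 rows between *Dlk1* and *Dio3* gave little signal. Of these, 60 were microRNA genes, whose mature products a library of this kind does not capture, and 48 of the 60 had no fragment in any sample. Only *Mir1188*, *Mir3072* and *Dio3os*, the antisense neighbour of *Dio3*, exceeded 1 TPM in a sample, and the highest count of a microRNA row was 8 fragments. *Dio3os* had 5 and 7 fragments in male BC wt and 3, 12 and 13 in ΔE1, ΔE3 and ΔP4.

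The non-coding RNAs kept similar proportions to each other where they were present. Per length, on the TPM scale, *Rian* was at 1.30 to 1.71 times *Meg3* and *Mirg* at 0.580 to 1.01 times *Meg3* in the 9 samples outside the BC KO clones. These ratios depend on the transcript length used: with the union of exons, male CB wt had 53.2 TPM of *Meg3*, 49.3 of *Rian* and 10.3 of *Mirg*, in place of 45.2, 76.0 and 39.3. Over the 12 samples, *Rian* had the pattern most like *Meg3* of 14670 genes above 1 TPM in a sample, with a Pearson correlation of 0.999 between log2(CPM + 1) values, and *Mirg* came next at 0.986. *Rtl1* and *Dlk1* had correlations of 0.915 and 0.898, at ranks 11 and 21, and *Dio3* 0.761, at rank 377. The 10 non-member genes most like *Meg3* were *Tpi1*, *Ppp1r1a*, *Ror2*, *Ly6e*, *Fam96a*, *Mrfap1*, *6430411K18Rik*, *Rtn4rl1*, *Brap* and *Slc25a53*, with correlations from 0.911 to 0.955. *Tpi1*, a glycolytic enzyme, averaged 228 CPM in male BC wt, 173 in BC KO, 425 in female BC wt, 407 in CB wt and 389 in CB KO, a much smaller range than that of *Meg3*. These correlations describe samples that fall into 5 groups, and mostly follow the differences between the groups. *Meg3*, *Rian* and *Mirg* led to the choice of members because they fell together in the BC KO clones. Those clones are among the 12 samples, so the high ranks of *Rian* and *Mirg* are partly set by that choice.

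Genes that act on imprinting were examined as a list of 15 regulators, all above 1 TPM. In BC KO clones 4 of them had every clone below wt and 1 had every clone above, where 16.6% and 15.9% of all genes did. The lowest log2 ratio was -1.05 for *Dnmt3a*, a de novo DNA methyltransferase, the highest 0.49 for *Zfp57*, a zinc finger protein that keeps imprints methylated, and the median -0.14. In CB KO, edgeR called 0 of 15, as 0.0% of all genes, so nothing is read from this count. Their median log2 fold change was 0.07. Between female and male BC wt, 2 were higher and 5 lower, where 24.5% and 19.9% of all genes were. *Aff3*, whose product is known to bind the control region of this domain, was lower by a log2 fold change of -3.20 ± 0.09 (adjusted p = 7.70e-10 from edgeR), and *Dnmt3b*, another de novo methyltransferase, by -1.80 ± 0.07 (adjusted p = 4.01e-09 from edgeR). *Tet2*, which oxidises methylated cytosine, was higher in the female cells by 1.32 ± 0.11 and *Zfp57* by 1.17 ± 0.07. Between male CB and BC wt, 6 were lower and 0 higher, where 14.7% and 19.8% of all genes were, led by *Aff3* at -0.98 ± 0.06 (adjusted p = 1.42e-05 from edgeR) and *Tet1* at -0.91 ± 0.10 (adjusted p = 2.38e-04 from edgeR).

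Of 10 maternally expressed genes outside the domain, 9 exceeded 1 TPM, and their log2 ratios of BC KO to wt ran from -1.22 for *H19* to 0.61 for *Grb10*. Every clone was below wt for 4 of them and above for 2, where 16.6% and 15.9% of all genes were. Of 15 paternally expressed genes, 14 exceeded 1 TPM, with ratios from -1.20 for *Nap1l5* to 1.56 for *Igf2*, and 2 were below wt in every clone and 2 above. The lists hold no gene of the Xlr cluster, and none of their genes reached the -5.66 of *Meg3*. Nothing is read from this, since the fall of *Meg3* in the same comparison led to the choice of members. *H19*, a maternal non-coding RNA of another domain, stayed 91.6% maternal in the BC KO clones, against 96.0% in wt. In CB KO, edgeR called 0 of 9 and 0 of 14 genes of these lists, but it called 0.0% of all genes there, so nothing is read from these counts. In male CB wt against male BC wt it called 3 of 9 maternally expressed genes higher and 1 lower. Of 14 paternally expressed genes it called 6 higher and 1 lower, where 19.8% of all genes were higher and 14.7% lower. In female against male BC wt the counts were 2 higher and 5 lower of 9, and 3 higher and 4 lower of 14. Of all genes in that comparison, 24.5% were higher and 19.9% lower.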

How the data were processed

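The authors mapped RNA-seq reads to the BL6 genome (mm10) and to a genome carrying cast SNPs, kept uniquely mapped reads, split reads with a SNP by allele, and deposited an estimated count per gene and sample, without normalisation. The submitters' processing notes name Bowtie2 2.2.5. Here, estimated counts of fragments on either genome were rounded and tested with edgeR 4.0.16 (TMM, quasi-likelihood test, Benjamini-Hochberg adjustment) over all genes above 1 TPM in a sample of the comparison. Calls needed an FDR under 0.05 and at least 1.5-fold. TPM used lengths from GENCODE release M21 of GRCm38, matched by symbol for 23310 of 24346 genes. The median length of 2284 bp was used for the other 1036. CPM values were scaled by TMM over all 12 samples. Maternal shares needed at least 20 SNP fragments. Alternatives were DESeq2 1.42.0, other scalings, no filter, all samples in the fit, BL6 mapping alone, a replicate block and leaving out each sample. The scripts were tested on simulated data.

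The named genes are the 6 members, rows of the interval above 1 TPM, flanking and listed genes that were called or had an extreme ratio, and the 10 genes most correlated with *Meg3*. Members and lists were chosen with earlier results of these data known. Guides come from the study's supplementary sequences. With 49975599 fragments in the smallest library, the precision of allelic values for *Mirg*, *Rtl1* and *Dio3* is limited by their few SNP fragments.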

Additional observations from a re-analysis of the deposited data

Results flagged for a closer look

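For 5 of the 6 genes, every BC KO clone was below both wt samples and every CB KO clone above. Of all genes above 1 TPM, 16.6% had every BC KO clone below both wt samples, and 21.3% had every CB KO clone above. The share of genes with both was not computed, so nothing is read from the count of members. The edgeR test called none of the CB differences, and the BC differences were not tested. The log2 ratio of KO to wt was -5.66 in BC and 0.58 in CB for *Meg3*, -5.94 and 0.26 for *Rian*, and -5.80 and 0.57 for *Mirg*. It was -2.40 in BC and 1.10 in CB for *Rtl1*, and -0.80 and 0.70 for *Dlk1*. The difference between the crosses was not tested, because the BC comparison chose the members. *Dio3* was below wt in every clone of both crosses, at log2 ratios of -0.34 and -0.57.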

How the results depend on the processing

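For CB KO against wt, where edgeR called 0 members, DESeq2 called 3 on diploid counts and 2 on maternal counts (*Meg3* and *Mirg*, among 115 genes). Leaving out 1 KO clone at a time gave 0 to 3 members called on diploid counts and 0 on each allele, the 3 without ΔP2.1. All other settings that kept every sample gave 0. The number of all genes called was 54 of 13801 with all 12 samples in the fit and 927 of 13720 without ΔP2.1. The maternal change of *Dio3*, -0.75 with all samples, ran from -1.5 to 0.88 when 1 sample was left out, positive without CB wt 1; it rests on few fragments, and the cause was not tested. All 6 members stayed called higher in female BC wt and in male CB wt against male BC wt in every setting in which they were tested, *Rtl1* falling under the TPM filter without female BC wt 2 or CB wt 1. The replicate block left 6 members called in both, with 2816 lower and 3467 higher genes in the female comparison; replicate numbers are not said to be shared, and same-numbered samples correlated at 0.187 and 0.065. In BC KO every member stayed below wt in all settings. A pseudocount of 0.1 kept 8 of the 10 genes most like *Meg3*.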
